A study of Homo sapiens with 8 samples.

Results

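The 7 genes described here, HNRNPR, HNRNPU, HNRNPM, HNRNPL, HNRNPH1, HNRNPC and SYNCRIP, encode heterogeneous nuclear ribonucleoproteins (hnRNPs). Their pre-mRNAs were examined as targets of another hnRNP, the polypyrimidine tract binding protein (PTB). The members are the peaks that lie on the gene's own strand within 7 gene intervals of the human build hg19. There were 379 such peaks among 266317 in 5 peak lists. The genes were selected on the peaks that these lists hold in them, so the number, spacing and overlap of peaks in these genes are given as descriptions and support nothing.

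The study mapped PTB on RNA by crosslinking and immunoprecipitation (CLIP), in which light bonds a protein to the RNA it touches in living cells and the RNA under the protein is then sequenced. It used GoldCLIP, a form of CLIP that omits the gel: the protein carries a Halo tag, which bonds covalently to a ligand on beads. The 8 samples came from 293T cells, a human embryonic kidney line, made transgenic for a Halo fusion and grown in puromycin, and libraries were made by the iCLIP procedure. The labels name no clone and do not say whether replicates were separate cultures.

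Halo-PTB cells were crosslinked with UVC light (2 samples) or with UVA light (2 samples). The controls were Halo-PTB cells without UV (2 samples) and cells with a Halo fusion of yellow fluorescent protein (YFP) that received UVC light (2 samples). The labels name no photoactivatable nucleoside for the UVA samples. Each group is represented by 1 pooled peak list. A further list comes from published PTB iCLIP data that the submitters ran through the methods of this series, and the cells of that study are not named in the series text. The lists carry no read numbers, so depth is unknown, no spread between replicates can be given, and no p-value was computed. Libraries ran on either of a pair of Illumina platforms that the labels do not assign to samples, so platform and light source cannot be told apart.

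PTB binds pyrimidine-rich tracts, mostly in introns, and represses or promotes the use of nearby exons. hnRNPs coat nascent transcripts, and each prefers its own kind of sequence. Many hnRNP genes are themselves regulated at the level of splicing by hnRNPs, in several cases through exons whose inclusion or skipping sends the mRNA to nonsense-mediated decay. HNRNPR and SYNCRIP (hnRNP Q) are close paralogs with several RNA recognition motifs. HNRNPU, also called scaffold attachment factor A, binds RNA and chromatin. HNRNPM prefers GU-rich RNA, HNRNPL CA-rich RNA, HNRNPH1 runs of G and HNRNPC runs of U.

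HNRNPR lies on chromosome 1 from 23636276 to 23670853 and HNRNPU on chromosome 1 from 245013602 to 245027827, both on the minus strand. HNRNPL lies on chromosome 19 from 39327029 to 39340501, HNRNPH1 on chromosome 5 from 179041179 to 179050711 and HNRNPC on chromosome 14 from 21677296 to 21737638, all on the minus strand. SYNCRIP lies on chromosome 6 from 86317502 to 86353043 on the minus strand. HNRNPM, on chromosome 19 from 8509651 to 8554009, is the only one on the plus strand. The intervals sum to 212054 nt, with HNRNPH1 the shortest (9533 nt) and HNRNPC the longest (60343 nt). Those of HNRNPH1, HNRNPL and HNRNPR are shorter than the RefSeq genes in the newer build GRCh38, which span 20607, 15978 and 39597 nt. RefSeq lists 21 pseudogenes for the 7 genes, 9 of them for HNRNPC, and how reads shared with such copies were placed is not given in the sources used here. No hg19 annotation or genome was used here. Exons, introns and sequences of the sites are therefore not given, and other hnRNP genes were not analysed here.

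All peaks in the 7 intervals followed the strand of the gene: the opposite strand held 0 peaks in each of the 5 lists. Peaks within 20 nt of each other were merged into sites. The 7 genes then held 109 sites (132 peaks) in the PTB UVC list, 118 sites (167 peaks) in the PTB UVA list and 59 sites (67 peaks) in the iCLIP list. Without UV they held 3 sites (3 peaks), and with YFP 5 sites (10 peaks). The whole lists held 80531, 70110 and 52446 sites for PTB with UVC, PTB with UVA and iCLIP, and 2341 and 1080 sites for no UV and YFP. As a share of the list, the genes held 0.135% of UVC, 0.168% of UVA and 0.112% of iCLIP sites, against 0.128% of sites without UV (exact 95% interval 0.0264 to 0.374) and 0.463% of YFP sites (interval 0.15 to 1.08). The lists differ in length, so their counts are not set against each other. The interval without UV holds the shares of all 3 PTB lists, and the YFP share was higher than each of them.

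The genes differed widely in how densely they were covered. HNRNPH1 had 19.9 sites per 10 kb with UVC, 35.7 with UVA and 15.7 in iCLIP. HNRNPU followed with 11.2 (UVC), 22.5 (UVA) and 10.5 (iCLIP), and HNRNPL with 11.1, 13.4 and 5.94 in the same lists. These 3 short genes led in all 3 PTB lists. Their order depends on the interval: over the RefSeq gene length HNRNPH1 had 9.22, 16.5 and 7.28 sites per 10 kb with UVC, with UVA and in iCLIP, below HNRNPU with 11.2, 22.5 and 10.5, and HNRNPL had 9.39, 11.3 and 5.01. HNRNPR had 4.63 sites per 10 kb with UVC, 3.76 with UVA and 3.18 in iCLIP, and HNRNPM had 3.61, 1.58 and 1.13. HNRNPC, the longest interval, had 2.49 with UVC, 2.15 with UVA and 0.663 in iCLIP. SYNCRIP had 3.38 with UVC but 0.281 with UVA and 0.281 in iCLIP, where it held 1 site each.

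**Figure D1:**
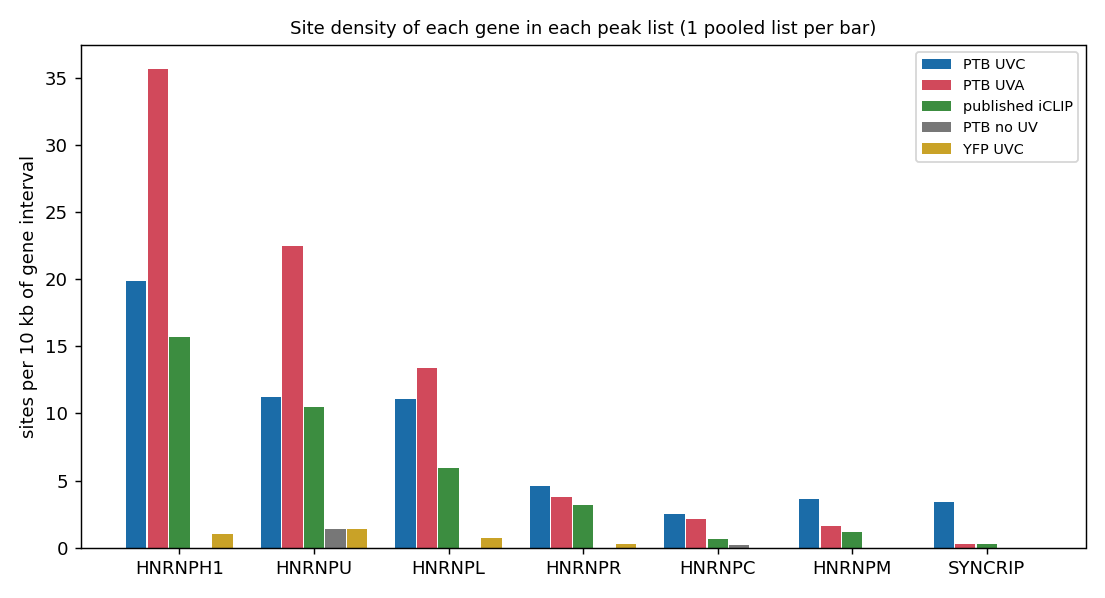
Sites per 10 kb of gene interval (vertical axis) for each of the 7 genes in the 5 peak lists, each bar 1 pooled list without replicate error. HNRNPH1 was highest over these intervals (19.9, 35.7 and 15.7 sites per 10 kb in the PTB lists) but below HNRNPU over the longer RefSeq length (9.22, 16.5 and 7.28), and SYNCRIP was covered with UVC (3.38) but hardly with UVA or in iCLIP (0.281 each).

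Measured as nucleotides under peaks, HNRNPH1 was covered over 9.36% of its length with UVC, 19% with UVA and 6.16% in iCLIP. HNRNPU was covered over 4.79%, 12% and 3.58%, and HNRNPL over 5.08%, 7.85% and 2.56%, in the same order of lists. The other genes stayed at or under 2.95% in each list. The fullest 10 kb window of HNRNPH1 held 34 of its own UVA sites, a number reached by 0.00331% of the 60426 windows that held any PTB site on that strand. Its 18 UVC sites in a window were reached by 0.00993% of them and its 14 iCLIP sites by 0.0298%. HNRNPU reached 22 UVA sites in a window (0.0165%), while SYNCRIP, with 1, matched 47.7% of the windows. Since the genes were chosen for their peaks, these percentages place them in the lists and test nothing.

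Within the genes, the median distance from 1 UVA site to the next was 149 nt, and 60.4% of neighbours lay within 200 nt. It was 95 nt in HNRNPH1, 130 nt in HNRNPU and 213 nt in HNRNPL, but 4434.5 nt in HNRNPM. UVC sites within the genes had a median gap of 675 nt and iCLIP sites one of 469.5 nt. Gaps stop at the ends of a gene, so they are not set beside gaps elsewhere in the genome.

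The balance between the light arms differed between genes. SYNCRIP had 12 UVC sites and 1 UVA site, so UVC gave 92.3% of its sites in those lists (interval 64.0 to 99.8). HNRNPM also had more UVC sites, 16 against 7 with UVA, or 69.6% (interval 47.1 to 86.8). HNRNPU stood at the other end with 16 UVC and 32 UVA sites, or 33.3% (interval 20.4 to 48.4), followed by HNRNPH1 with 19 and 34, or 35.8% (interval 23.1 to 50.2). HNRNPL, HNRNPC and HNRNPR lay between, at 45.5%, 53.6% and 55.2%, with wide intervals that overlap each other. Over the 7 genes the UVC share was 48.0% (interval 41.4 to 54.7), against 53.5% over all sites of both lists. Intervals cover counting error only and treat sites as independent.

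HNRNPM, the plus-strand gene, had 26 UVC peaks that merged to 16 sites, 10 of them made of 2 peaks. Of its UVC peaks, 6 were exactly 4 nt wide and 5 exactly 19 nt. Such pairs formed 5 sites of 39 nt that scored 16 or 17, at 178, 9698, 19568, 21750 and 24017 nt from the 5′ end of the interval. Across the whole UVC list, 69.3% of plus-strand sites were made of more than 1 peak, against 15.98% of minus-strand sites, and 10.8% of plus-strand sites were 39 nt wide and made of 2 peaks, against 2.50% on the minus strand. In the UVA and iCLIP lists the strands were close, at 13.1% and 12.3% (UVA) and 9.90% and 7.76% (iCLIP). The peak count of HNRNPM with UVC therefore cannot be set beside those of the minus-strand genes, and sites were counted instead. What part this feature has in the number of its UVC sites was not tested.

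**Figure D2:**
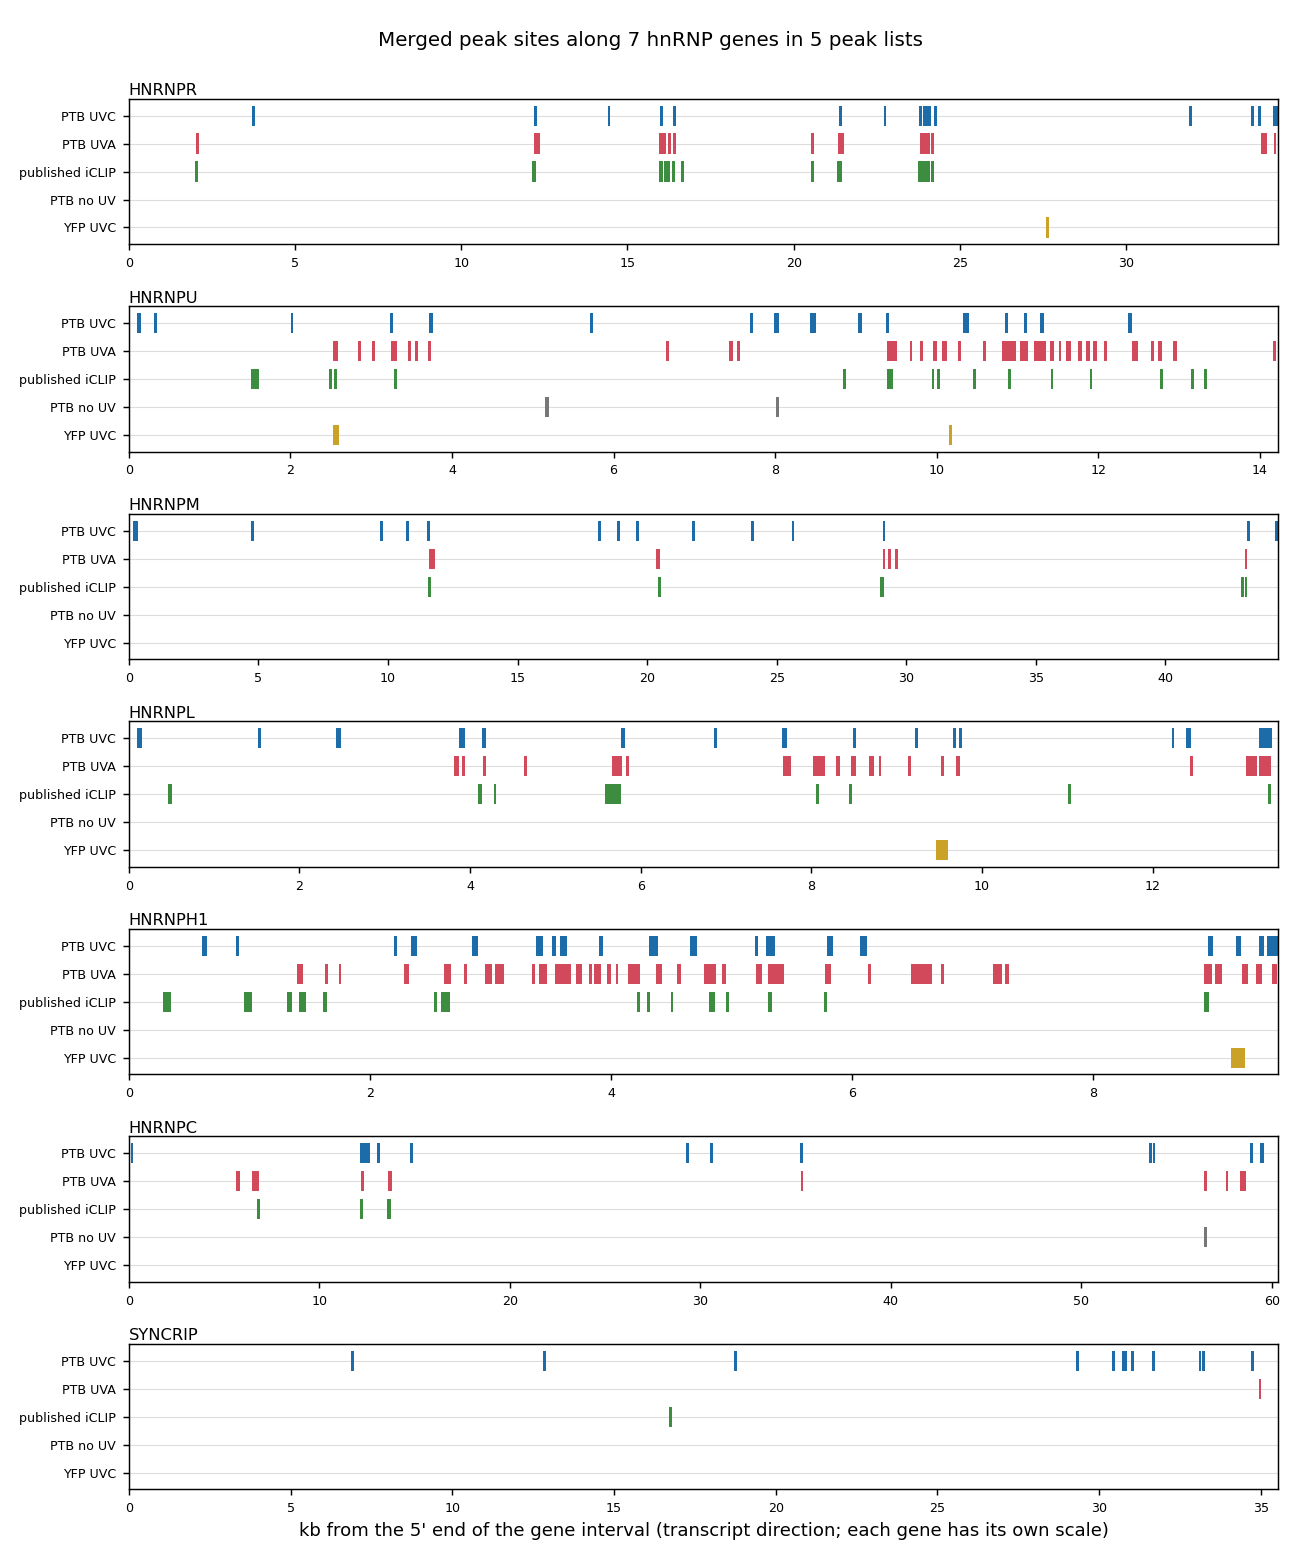
Merged sites along each of the 7 gene intervals, from the 5′ end on the left (horizontal axis in kb, its own scale for each gene), with a row for each of the 5 lists. Marks narrower than 0.25% of the interval were widened to that size. HNRNPH1, HNRNPU and HNRNPL held the most sites for their length in the 3 PTB lists. HNRNPR held clusters common to the 3 PTB lists, and 9 of 12 SYNCRIP sites with UVC lay in the last 20% of the interval.

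HNRNPR held the most UVC sites that met both other PTB lists, 8 of 16, and these lay on 5 UVA and 5 iCLIP sites. By iCLIP sites it did not lead in share: 4 of 11 met both light arms, against 2 of 5 in HNRNPM. In HNRNPR UVC gave 16 sites, UVA 13 and iCLIP 11. Its longest cluster lay on chromosome 1 between 23646753 and 23647123, about 24 kb into the interval: the UVA site there spanned 304 nt and merged 7 peaks, and the iCLIP site spanned 367 nt and merged 4. The UVC list split the same stretch into 4 sites of 37 to 60 nt, with scores of 17 to 60: from 23646753 to 23646812, from 23646858 to 23646900, from 23646928 to 23646964 and from 23647032 to 23647076. The iCLIP site scored 962, a value reached by 0.236% of iCLIP sites, and the UVA site was at the score limit of 1000. The deposited score belongs to the authors' peak calling, rises as the peak's p-value falls, and is used here only to rank sites within a list.

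A second HNRNPR site, on chromosome 1 from 23649401 to 23649500, scored 167 with UVC (reached by 0.774% of sites). It met a UVA site at the limit and an iCLIP site scoring 959. The top UVC peak of the gene, from 23658573 to 23658661, scored 170 and met a UVA site scoring 660 and an iCLIP site scoring 328. Around 16 kb from the 5′ end the iCLIP list had a cluster of 5 sites, the UVA list 3 and the UVC list 2. The UVC site from 23654810 to 23654867 scored 66 there and met a UVA site scoring 861 and an iCLIP site scoring 204. Some positions were shared by UVA and iCLIP without UVC: at 2023 nt from the 5′ end a UVA site scoring 928 met an iCLIP site scoring 318, and at 20513 nt a UVA site scoring 625 met one scoring 79. The 3′ end differed, since the last 20% of HNRNPR held 4 UVC and 3 UVA sites but 0 iCLIP sites.

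HNRNPU was covered most densely toward its 3′ end with UVA. With each gene cut into 5 equal parts, the last 2 of HNRNPU held 10 and 12 of its 32 UVA sites. Its 16 UVC sites were spread from 104 nt after the 5′ end, with 6 in the fourth part and 1 in the last. The highest UVC score in HNRNPU, 439, belonged to chromosome 1 from 245017426 to 245017501, which met neither a UVA nor an iCLIP site. The highest UVA score, 736, belonged to the site from 245013632 to 245013662, 30 nt before the 3′ end, which met neither other list. The 15 iCLIP sites of HNRNPU scored 13 to 49, and 13 of them were below the iCLIP median of 46. The highest of them, from 245026223 to 245026309, met neither light arm. In RefSeq the small nucleolar RNA gene SNORA100 lies within HNRNPU. Whether the UVC site with the highest score lies on it was not determined, because the builds differ.

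In HNRNPM the UVC sites were spread along the interval, with 3, 3, 6, 1 and 3 sites in its 5 parts. These counts include the 5 sites of 39 nt described above, none of which met another PTB list. The 7 UVA sites lay at fewer places, and 4 of them met an iCLIP site. The site shared by all 3 lists with the highest scores ran from 8521175 to 8521285 on chromosome 19 with UVC (score 65), and it met a UVA site scoring 765 and the gene's top iCLIP peak, from 8521187 to 8521285 with a score of 386. The top UVA peak of HNRNPM, from 8530063 to 8530133 with a score of 914, met an iCLIP site and no UVC site. The top UVC peak, from 8553933 to 8553959 with a score of 267, met neither list and belonged to a site that ended 23 nt before the 3′ end.

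HNRNPL carried the highest UVC score of the 7 genes. Its peak on chromosome 19 from 39327154 to 39327254 scored 717, which 0.273% of UVC peaks reached, and belonged to a site that ended 77 nt before the 3′ end of the interval. The UVA site at the same place, from 39327117 to 39327253, merged 6 peaks and was at the score limit. The iCLIP site there was 19 nt wide and scored 26, below the iCLIP median. The UVA sites of HNRNPL were most numerous in the fourth of the 5 parts, with 8 of 18, and 8 of 15 UVC sites met a UVA site. The widest iCLIP site of the gene, 178 nt from 39334737 to 39334914, met a UVA site scoring 557 and no UVC site.

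HNRNPH1 held sites in each of its 5 parts in all 3 PTB lists. The second part held 6 of 19 UVC and 9 of 34 UVA sites, and the third 5 UVC and 11 UVA sites. The longest gap between its sites was 2827 nt with UVC, 1617 nt with UVA and 3129 nt in iCLIP. At 5.3 kb from its 5′ end the top peaks of both light arms coincided. The UVC site on chromosome 5 from 179045354 to 179045424 scored 135 (reached by 1.09% of sites), the UVA site from 179045278 to 179045408 was at the limit, and the iCLIP site that met them scored 42. This was the only HNRNPH1 site at the limit with UVA. The next UVA score was 435, and the gene's UVA sites had a median of 147.5. In the first part UVC had 2 sites, UVA 3 and iCLIP 5 of its 15. The top iCLIP peak of HNRNPH1, from 179049688 to 179049754 with a score of 68, lay there and met neither light arm.

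HNRNPC, the longest gene, held its sites in a few groups, and the fourth of the 5 parts held 0 sites in the UVC, UVA and iCLIP lists. Near 12 kb from the 5′ end, 4 UVC sites followed each other, from 12157 to 12517 nt. The first of them, on chromosome 14 from 21725390 to 21725481, scored 59. It met the UVA site from 21725289 to 21725448, 1 of the 5 UVA sites of the gene at the limit, and the top iCLIP peak, from 21725406 to 21725510 with a score of 332. A further UVC site, from 21702291 to 21702384 with a score of 142, met a UVA site at the limit and no iCLIP site. The top UVC peak, from 21684048 to 21684070 with a score of 369, met neither list. HNRNPC had the highest UVA scores of the 7 genes, with a median of 728 over 13 sites and 5 sites at the limit, although its site density was low.

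SYNCRIP, the paralog of HNRNPR, shared none of its sites between the PTB lists. Its 12 UVC sites scored 19 to 63, with only 1 below the UVC median of 21, and the highest lay from 86321952 to 86322049. Of the 12, 9 lay in the last of the 5 parts of the gene, and 0 of 12 met a UVA or an iCLIP site (interval 0 to 26.5%). Its only UVA site, 14 nt on chromosome 6 from 86318096 to 86318109, scored 346, and its only iCLIP site, 6 nt from 86336344 to 86336349, scored 129. The 3 lists thus named different places in SYNCRIP. Outside the genes most UVC sites, 86.1%, also met neither other list. The shares there that met UVA (11.2%) and iCLIP (6.24%) both lie inside the interval for SYNCRIP. Its UVA and iCLIP lists also offered very few nucleotides to meet. The lack of overlap therefore does not set SYNCRIP apart from the rest of the UVC list.

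Score and density ran in different directions in the lists. With UVC, the median site score was highest in HNRNPH1 (43) and HNRNPU (41.5), followed by HNRNPR (37.5), HNRNPC (32), SYNCRIP (26.5), HNRNPL (24) and HNRNPM (22), with 21 over the whole list. With UVA the dense genes had the lower medians: 135 in HNRNPU, 147.5 in HNRNPH1 and 183.5 in HNRNPL, against 357 in HNRNPM, 404 in HNRNPR and 728 in HNRNPC. All 6 were above the UVA median of 80, and 111 of 118 UVA sites of the genes were at or above it. In iCLIP the medians were 20 in HNRNPU, 24 in HNRNPH1 and 26.5 in HNRNPL, below the list median of 46, while HNRNPC (60.5), HNRNPM (103) and HNRNPR (204) lay above it. Across the 7 genes the rank correlation of site density with median score was 0.571 with UVC, -0.643 with UVA and -0.714 in iCLIP. Density was taken over the intervals used here, and the order of the genes changes with the RefSeq lengths. This describes 7 genes that share their libraries, and SYNCRIP rests on 1 site in each of the UVA and iCLIP lists.

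**Figure D3:**
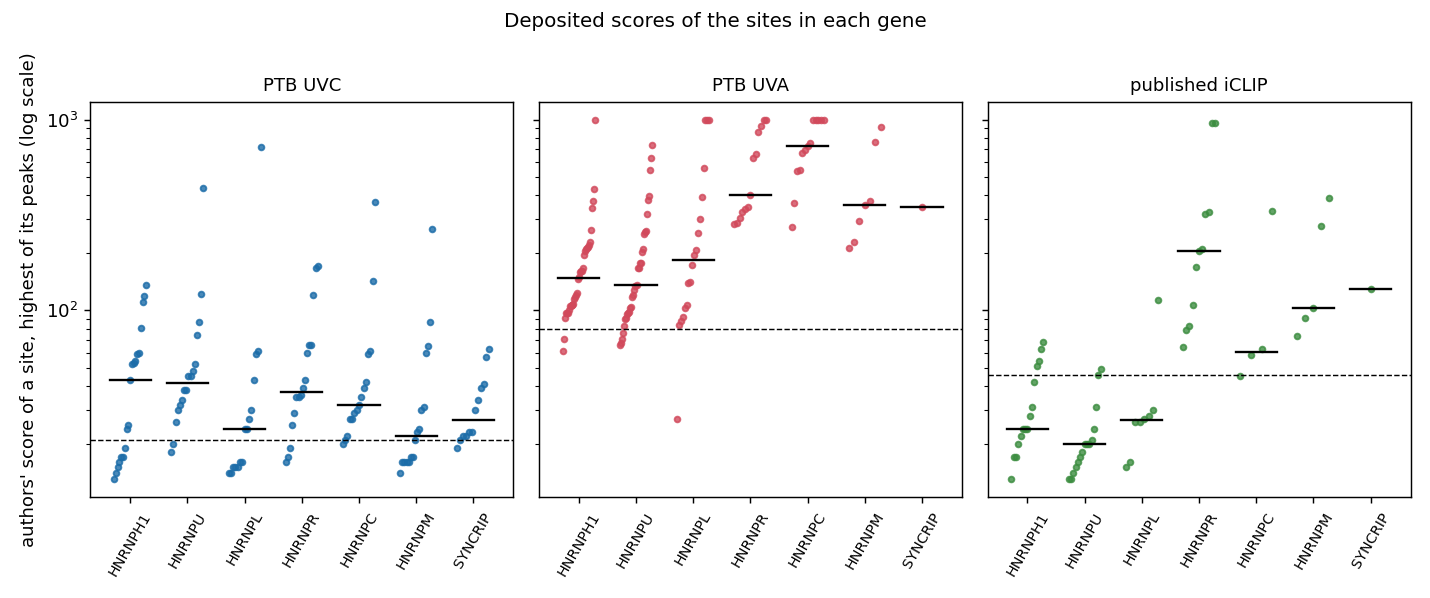
Authors' score of each site (vertical log axis; score of the highest peak in the site) in the 7 genes, for PTB UVC, PTB UVA and iCLIP; short bars are gene medians and the dashed line is the median of all sites of the list. UVA sites of HNRNPC, HNRNPR and HNRNPM scored higher than most of those in HNRNPH1 and HNRNPU, and iCLIP sites of HNRNPU, HNRNPL and HNRNPH1 lay mostly under the dashed line.

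The light arms were compared by asking how many sites of 1 list shared at least 1 nt with a site of another on the same strand. The genes were selected on peaks in these same lists, so the values outside them are given as background and the intervals are no test against it. Of the 109 UVC sites in the 7 genes, 40 met a UVA site, or 36.7% (interval 27.7 to 46.5), against 11.2% of UVC sites outside the genes. These lay in HNRNPH1 (11 of 19), HNRNPR (9 of 16), HNRNPL (8 of 15) and HNRNPU (7 of 16). The counts were lower in HNRNPC (3 of 15) and HNRNPM (2 of 16), and 0 of 12 in SYNCRIP. Seen from UVA, 35 of 118 sites met a UVC site, or 29.7% (interval 21.6 to 38.8), against 12.6% outside.

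UVA peaks covered 19% of HNRNPH1, 12% of HNRNPU and 7.85% of HNRNPL, and the part this plays in their shares was not tested. With these 3 genes left out together, a choice made after seeing the data, 23.7% of the remaining UVC sites met a UVA site. When at least 50% of the UVC site had to be covered, the share was 25.7% in the genes and 7.28% outside. By score class, 31 of 81 UVC sites at or above the list median met a UVA site (38.3%, against 15.1% outside), as did 9 of 28 below it (32.1%, against 7.21%).

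Of the UVC sites in the genes, 15 met an iCLIP site, or 13.8% (interval 7.91 to 21.7), against 6.24% outside. HNRNPR gave 8 of the 15. HNRNPM and HNRNPH1 gave 2 each, HNRNPU, HNRNPL and HNRNPC 1 each, and SYNCRIP 0. Without HNRNPR the share was 7.53%. It was 21.1% with midpoints within 50 nt (7.72% outside) and 9.17% with at least 50% of the site covered (3.91% outside). The number of shared sites also falls to 9 when only peaks at or above the median score of their list are used. HNRNPR alone had 8 of 16 (50%, interval 24.7 to 75.3).

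The iCLIP map overlapped the UVA list more than the UVC list in these genes, as it did outside them. Of the 118 UVA sites, 36 met an iCLIP site, or 30.5% (interval 22.4 to 39.7), against 18.9% outside. The count was 8 of 13 in HNRNPR, 4 of 7 in HNRNPM, 9 of 34 in HNRNPH1 and 8 of 32 in HNRNPU. Among UVA sites at or above the list median, 35 of 111 in the genes met an iCLIP site (31.5%, interval 23.0 to 41.0), against 28.5% outside. When both lists were limited to peaks at or above their medians, the share in the genes was 18.1%, against 21.04% outside.

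From the iCLIP side, 38 of 59 sites in the 7 genes met a UVA site, or 64.4% (interval 50.9 to 76.4), against 25.3% outside. The count was 9 of 11 in HNRNPR, 4 of 5 in HNRNPM, 3 of 4 in HNRNPC, 9 of 15 in each of HNRNPU and HNRNPH1, 4 of 8 in HNRNPL and 0 of 1 in SYNCRIP. An iCLIP site met a UVC site in 12 of 59 cases, or 20.3% (interval 10.98 to 32.8), against 9.42% outside. Of the iCLIP sites, 11 met both GoldCLIP lists (18.6%), against 5.65% outside, and 20 met neither (33.9%), against 71% outside. Of iCLIP sites at or above the list median, 21 of 27 met a UVA site (77.8%), against 31.5% outside, and below the median 17 of 32 did (53.1%), against 18.9%.

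**Figure D4:**
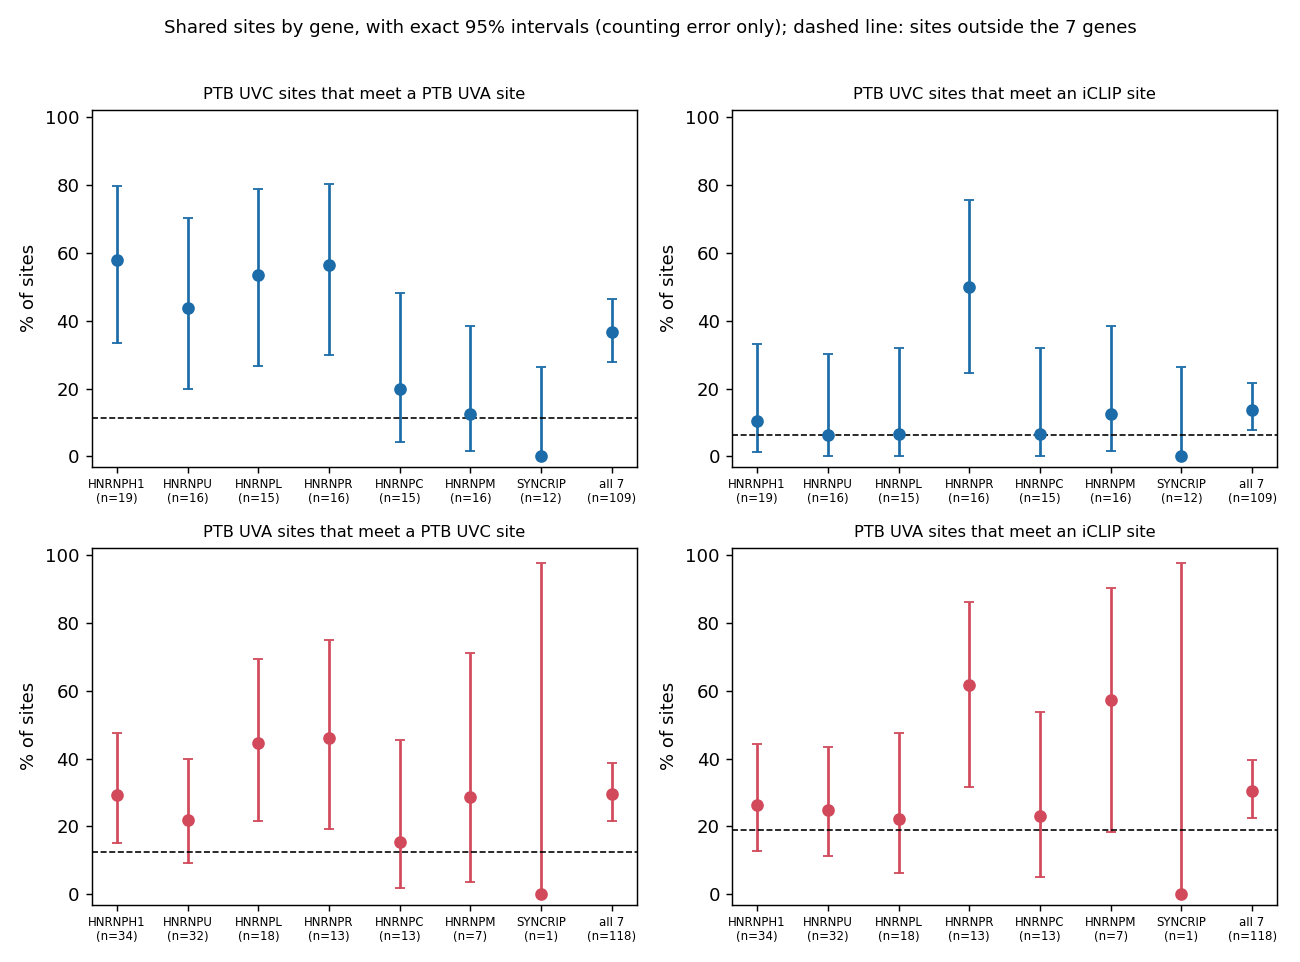
Share of sites in each gene that met a site of the other list (vertical axis in %, n sites under each gene), with exact 95% intervals that cover counting error only; the dashed line is the share among sites outside the 7 genes. UVC sites of HNRNPH1, HNRNPU, HNRNPL and HNRNPR met UVA sites in 43.8% to 57.9% of cases, against 11.2% outside, and UVC sites met iCLIP most often in HNRNPR (50%).

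The 15 UVC sites that met iCLIP were the same ones that met both other PTB lists, 13.8% of UVC sites in the genes against 3.56% outside, or 7 sites without HNRNPR. They lay on 12 different UVA sites and 12 different iCLIP sites, because 4 HNRNPR sites shared 1 UVA and 1 iCLIP site. In 14 of the 15 some nucleotides were common to all 3 lists. The exception was the HNRNPR site from 23654437 to 23654489, whose UVA and iCLIP partners did not touch. None of the 15 lay on a control peak, and only 0.782% of UVC sites outside the genes did. The smallest common stretch was 2 nt, in HNRNPU from 245018437 to 245018458, and the largest 95 nt, in the HNRNPR site from 23649401 to 23649500. Other such sites were HNRNPM from 8538741 to 8538776, with 36 nt in common, HNRNPH1 from 179041719 to 179041759, with 8 nt, and HNRNPL from 39327106 to 39327254, with 19 nt. A majority of UVC sites in the genes, 69 of 109 (63.3%), met neither other list, as did 86.1% outside. Of the 118 UVA sites, 16 met both other lists (13.6%), against 4.36% outside, and 63 met neither (53.4%), against 72.9% outside. Among UVA sites scoring at or above the list median these differences were smaller. Both lists were met by 14.4% in the genes and 7.72% outside, and neither by 52.3% and 60.1%.

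The highest peaks of each gene did not always coincide. Of the 7 top UVC peaks, those of HNRNPR, HNRNPL and HNRNPH1 met both other lists and those of HNRNPU, HNRNPM, HNRNPC and SYNCRIP met neither. Of the 7 top UVA peaks, 5 met an iCLIP site and 4 a UVC site, and those of HNRNPU and SYNCRIP met neither. Of the 7 top iCLIP peaks, those of HNRNPR, HNRNPM and HNRNPC met both light arms and that of HNRNPL met UVA only. Among sites at or above the list median outside the genes, 81.7% of UVC, 60.1% of UVA and 63.2% of iCLIP sites met neither other list. Both were met by 5.14%, 7.72% and 8.69%, in the same order. The top peaks were picked as the highest of each gene, so these shares are background only. None of the 21 top peaks lay on a control peak. Outside the genes 0.782% of UVC, 0.762% of UVA and 0.464% of iCLIP sites did, so this is no sign of specificity.

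Where sites met, their edges were set against each other in the direction of transcription. In HNRNPR the 5′ edge of the UVC site lay downstream of that of its iCLIP site in 8 of 8 pairs, by a median of 54.5 nt, though 4 of the pairs use the same iCLIP site. Outside the genes it lay downstream in 60.2% of pairs, by a median of 9 nt. In HNRNPU the 5′ edge of the UVA site lay upstream of the iCLIP 5′ edge in 8 of 9 pairs (median offset -20 nt). In HNRNPR it lay downstream in 7 of 9 (median offset 19 nt). Over the 7 genes this UVA edge lay downstream in 19 and upstream in 19 of 38 pairs (median offset -1 nt). Outside them it lay downstream in 60.3% of pairs (median offset 7 nt). For UVC against iCLIP, the 5′ edge lay downstream in 11 of 15 pairs of the 7 genes (median offset 40 nt). The 3′ edge of the UVA site lay downstream of the iCLIP 3′ edge in 77.8% of HNRNPU pairs (median offset 22 nt). In HNRNPR it did so in 66.7% (median offset 8 nt). For UVC against iCLIP in HNRNPR the 3′ edge lay downstream in 50% (median offset -3.5 nt). An offset of the 5′ edge alone therefore does not show a shift of the whole site, since sites differ in width.

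Sites at the ends of the intervals were counted in each list, and the lists differ in length. In the first 1000 nt of the intervals UVC gave 8 sites, UVA 0 and iCLIP 3. Of these UVC sites, 2 lay in HNRNPH1 and 1 in HNRNPL. Both intervals are shorter than in RefSeq, so their 5′ ends may not be those of the genes. The UVC sites nearest the 5′ end began at 94 nt in HNRNPC, 97 nt in HNRNPL, 104 nt in HNRNPU and 178 nt in HNRNPM. The last 1000 nt held 13 UVC, 12 UVA and 3 iCLIP sites. UVA had 0 sites there in HNRNPM and HNRNPC, and UVC had 0 in HNRNPU. UVC sites ended 4 nt before the 3′ end in HNRNPH1, 8 nt in HNRNPR and 23 nt in HNRNPM.

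Sites also lay beyond the intervals. Within 5 kb downstream the UVA list had 5 sites after HNRNPR, 5 after HNRNPU and 4 after HNRNPC, and 0 after the other genes. The UVC list had 2 after SYNCRIP and 1 after each of HNRNPR, HNRNPU, HNRNPL and HNRNPC, and iCLIP had 2 after HNRNPU. Upstream, only UVC had sites, 2 before HNRNPH1 and 1 before HNRNPL, both of which have shorter intervals here than in RefSeq. No site crossed an interval edge and none of the flanking sites was present in all 3 PTB lists.

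The controls had 8 sites in the 7 genes. The 3 sites without UV were in HNRNPU from 245022626 to 245022675 (score 16) and from 245019785 to 245019823 (score 23), and in HNRNPC from 21681145 to 21681190 (score 16). The second of these lay on a UVC site scoring 74 and the third on a UVA site at the limit. So 2 of the 3 met a PTB site, against 25.3% of sites without UV elsewhere. The YFP sites were 2 in HNRNPU and 1 each in HNRNPR (from 23643164 to 23643270, on no PTB site), HNRNPL and HNRNPH1, with scores of 16 to 23, and 3 of the 5 met a PTB site, against 32.4% elsewhere. The YFP site in HNRNPU from 245025232 to 245025301 lay on a UVA site scoring 258 and on an iCLIP site. The one in HNRNPH1 from 179041457 to 179041567 met sites of both light arms, and the one in HNRNPL from 39330901 to 39331037 met a UVA site scoring 140. The other HNRNPU site, from 245017634 to 245017672, came from 4 listed peaks, of which 2 repeat the intervals of the others.

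Of the PTB sites in the genes, 2 of 109 UVC sites lay on control peaks (1.83%, interval 0.223 to 6.47), against 0.782% outside. It was 4 of 118 UVA sites (3.39%, interval 0.931 to 8.45), against 0.762%, and 1 of 59 iCLIP sites (1.69%, interval 0.0429 to 9.09), against 0.464%. All 3 shares were higher in the genes than outside them, but they rest on 2, 4 and 1 sites. Among sites at or above the list median this held for UVA only (3.60%, against 1.18% outside). The share there was 1.23% for UVC, against 1.29% outside, and 0% for iCLIP, against 0.636% outside. HNRNPM and SYNCRIP held 0 control sites. The control lists hold only called peaks and are short, so a control count of 0 gives no bound on RNA recovered there.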

How the data were processed

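Each of the 4 groups of 2 samples, and the published iCLIP data, has 1 peak list with 10 columns and no header. Bowtie 1.1.2 is the mapper, and hg19 and dm3 are the builds, in the submitters' processing notes. What dm3 was used for, the peak caller and the pooling of replicates are not given in the sources used. The deposited score and the deposited p-value of each peak come from the authors' peak calling. Peaks deposited with a score of 0 and a p-value of 0 (2 in these genes, both in HNRNPC with UVA) were taken to lie at the score limit of 1000. Starts, deposited as positions counted from 0, were written 1-based.

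Same-strand peaks no more than 20 nt apart became 1 site with the highest score of its peaks. Sites met if they had 1 nt or more in common on 1 strand. Shares carry exact Clopper-Pearson 95% intervals. Depth is unknown and each group is 1 list, so no test between groups was made. The members, lists and measures were chosen with earlier results of these data known. The rule for naming took all 7 genes, with the top peak of each PTB list (or the site that holds it), the sites in all 3 PTB lists and the control sites. RefSeq's GRCh38 gene table matched 7 of 7 symbols and was used for names, lengths and pseudogenes only.

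Counts of overlapping peaks matched those of bedtools 2.31.1 in 20 of 20 pairs of lists, and were tested on simulated data. Alternatives were merging at distance 0 or 50 nt, only peaks scoring at least the median, sites wholly inside the gene, 50% coverage, midpoints within 50 nt, control sites left out, strand ignored and each gene left out. The software was Python 3.11.15, scipy 1.17.1, pandas 2.3.3, numpy 2.4.6 and, for plots, matplotlib 3.10.9.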

Additional observations from a re-analysis of the deposited data

How the results depend on the processing

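A share was taken as moved when it left the exact 95% interval of the value reported, and a count when it changed by more than 1.5 times: 14 of 135 alternative values moved and 121 did not. Some of the 121 could not move. No site crossed an interval edge, and the opposite strand held no peaks. Requiring sites wholly inside the gene and ignoring strand therefore left the values in the genes as they were. The tally is thus no measure of robustness. UVC meeting iCLIP, at 13.8%, stayed inside its interval at 21.1% (midpoints within 50 nt) and 9.17% (50% coverage). Limiting lists to peaks at or above their median score left 26 iCLIP sites, 1 site without UV, 2 YFP sites and 9 UVC sites in both other lists, and 18.1% of UVA sites meeting iCLIP. Requiring 50% coverage gave 14.4% for UVA sites meeting UVC (6.87% outside the genes), 16.1% for UVA meeting iCLIP (12.3% outside) and 25.7% for UVC meeting UVA. Leaving out HNRNPU, HNRNPH1 and HNRNPL together, chosen after seeing the data, gave 44.1% for UVA meeting iCLIP and 23.7% for UVC meeting UVA. Leaving out each gene in turn gave 7.53% (without HNRNPR) to 15.5% for UVC meeting iCLIP, 7 (without HNRNPR) to 15 UVC sites in both lists, 1 to 3 sites without UV and 3 to 5 YFP sites. No paired analysis was possible because each group is 1 pooled list whose columns carry no replicate number. Depth, which is unknown, limits every count, and a list's length sets how often its sites can be met.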
